A study of Mus musculus with 14 samples.

Results

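Consensus CUT&Tag peaks of muscle stem cells (MuSCs) were looked up at 9 genes of the MEF2, sine oculis homeobox and EYA families, namely Mef2a, Mef2c, Mef2d, Six2, Six4, Six5, Eya1, Eya2 and Eya4, out of 21757 protein-coding genes. A peak was assigned to a gene when it overlapped the canonical GENCODE transcript on GRCm39 or the 20 kb on either side of it. The cells were primary MuSCs, sorted by the Pax7 reporter of female, 9 weeks old C57BL/6N mice that carried the Tg(Pax7-EGFP)Tajb transgene. All cells were kept for 6 h without serum and with 200 ng/mL of soluble BMPR1A-Fc, a decoy receptor for BMP ligands, and then received either 100 ng/mL BMP6 or the vehicle (4 mM HCl with 0.1% BSA) for 1 h. Antibodies to pSMAD1/5/9, SMAD4 and H3K27ac gave 6 lists of peaks, 1 per antibody and condition, each made from 2 biological replicates. A reporter sort selects Pax7-expressing cells. According to the authors, cells for short-term stimulation were grown in culture with serum and growth factors before this starvation. The measured state is therefore that of cultured cells starved of serum, not of freshly isolated cells.

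In BMP signaling, activated receptors phosphorylate SMAD1, SMAD5 and SMAD9, which enter the nucleus with the common partner SMAD4 and bind at promoters and enhancers. H3K27ac is a histone mark of active promoters and enhancers. MEF2 proteins are MADS-box transcription factors that bind A/T-rich sites and act with the MyoD family on genes of muscle differentiation. The sine oculis homeobox proteins, here Six2, Six4 and Six5, bind MEF3 sites in muscle genes, and EYA proteins are their co-activators, which have phosphatase activity and no DNA-binding domain of their own. With PAX and DACH proteins they form the PAX-SIX-EYA-DACH network, which acts upstream of the myogenic factors.

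The lists held 7339 pSMAD1/5/9 peaks after BMP6 and 949 in control cells, 12860 and 8577 SMAD4 peaks, and 78050 and 67790 H3K27ac peaks. Read counts are not among their columns. The depth of a peak is therefore unknown, and a gene without a listed peak is not shown to be unbound. H3K27ac was listed within 2 kb of the transcription start site (TSS) of 6 of 6 MuSC marker genes (Pax7, Myf5, Myod1, Cdh15, Itga7 and Vcam1) in both conditions. It was listed there at 0 of 3 endothelial markers, at 1 of 3 blood markers (Cd68), at 1 of 3 markers of fibro-adipogenic progenitors (Dpt) and at 2 of 3 genes of differentiated muscle (Acta1 and Ckm), likewise in both conditions. The part of other cells in the peaks described here was not tested.

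After BMP6, pSMAD1/5/9 was listed at 5 of the 9 genes, namely Mef2a, Mef2d, Six4, Six5 and Eya4, with 14 peaks. Of all protein-coding genes, 29.1% had such a peak. In control cells the only pSMAD1/5/9 peak lay at Mef2a, so 1 of 9 genes had one, against 5.97% of all genes. A pSMAD1/5/9 peak after BMP6 and none in control cells was seen at 4 of 9 genes (23.5% of all genes). SMAD4 was listed at 7 of 9 genes after BMP6, with 31 peaks (39.3% of all genes), and at 6 of 9 in control cells, with 17 peaks (30.8% of all genes). All 5 genes with pSMAD1/5/9 after BMP6 also had SMAD4. This was common over all protein-coding genes, where 5522 of the 6322 with pSMAD1/5/9 after BMP6 also had SMAD4. Both factors were thus listed at 5 of 9 genes, against 25.4% of all genes. Eya1 was the only 1 of the 9 without a peak in any of the 4 SMAD lists.

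**Figure D1:**
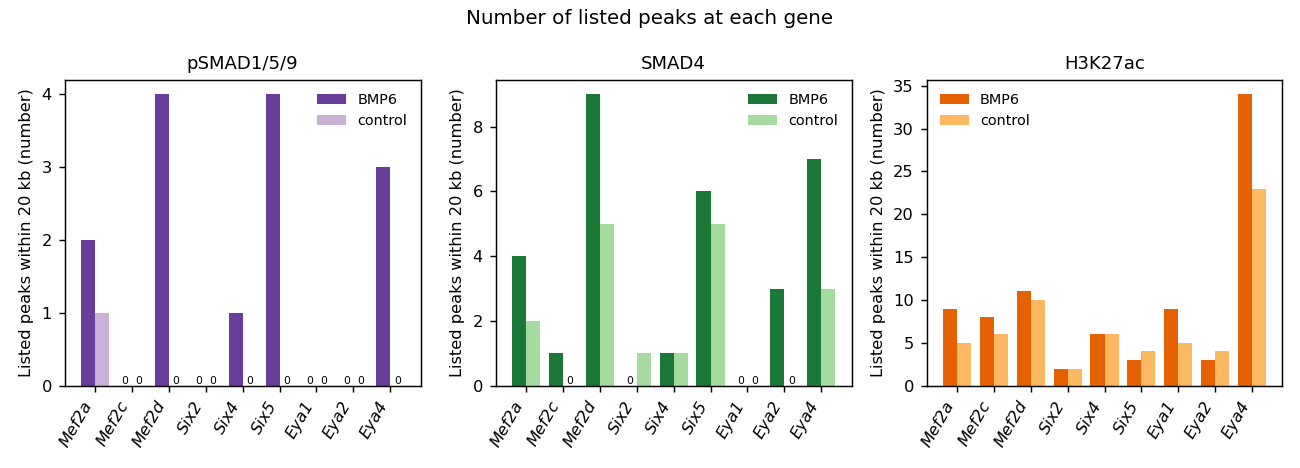
Number of listed peaks (y axis) within 20 kb of each gene (x axis) for pSMAD1/5/9, SMAD4 and H3K27ac, with dark bars for BMP6 and light bars for control cells; each bar is 1 consensus list of 2 replicates, so there is no error bar. Mef2d and Six5 have 4 pSMAD1/5/9 peaks each after BMP6, and Eya4 has the most H3K27ac peaks, 34 and 23.

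Long genes collect more peaks, so the counts were also set against the length of the regions. The regions of the 9 genes held 1.11 pSMAD1/5/9 peaks per 100 kb after BMP6, against 0.587 over the regions of all genes, and 0.0793 against 0.0819 in control cells. For SMAD4 the density was 2.46 against 0.973 after BMP6 and 1.35 against 0.661 in control cells. For H3K27ac it was 6.74 against 5.3 after BMP6 and 5.15 against 4.65 in control cells. After BMP6 the regions of Six2, Six4 and Six5 held 3.53 pSMAD1/5/9 peaks per 100 kb (5 peaks), the MEF2 regions 1.38 (6 peaks) and the EYA regions 0.438 (3 peaks), which is below the density over all genes. SMAD4 followed the same order after BMP6, with 4.94, 3.22 and 1.46 peaks per 100 kb. This order rested on the Six5 region, which held 4 of the 5 pSMAD1/5/9 peaks and 6 of the 7 SMAD4 peaks, most of the former nearer to the TSS of Dmpk or Dmwd. Six2 and Six4 alone had 1.02 peaks per 100 kb for pSMAD1/5/9 and likewise for SMAD4, below the MEF2 genes. The 8 genes without Six5 had 0.821 pSMAD1/5/9 and 2.05 SMAD4 peaks per 100 kb after BMP6. These densities are descriptions of 1 list each and carry no test.

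Sites rather than lists were compared by merging the overlapping SMAD peaks at each gene, which gave 30 sites. At 10 sites pSMAD1/5/9 and SMAD4 were listed after BMP6 and SMAD4 alone in control cells. At 2 sites both were listed after BMP6 and neither in control cells, 1 at Six5 and 1 at Eya4. None of the peaks at these 2 sites had an irreproducible discovery rate (IDR) of at most 0.01. The pSMAD1/5/9 peaks there ranked 6992 (Six5) and 5422 (Eya4) of 7339 by signal. The Eya4 site, from position 23225401 on, also lay next to a separate site ending at 23225334 that held SMAD4 of control cells. SMAD4 was listed without pSMAD1/5/9 at 13 sites after BMP6 only, at 3 sites in both conditions and at 1 site, at Six2, in control cells only. The remaining site, upstream of Mef2a, was in all 4 lists. Most of the merged sites with pSMAD1/5/9 after BMP6 therefore also held a SMAD4 peak of control cells. Merging can chain peaks with distant summits. The site at the Mef2d TSS counted through a control SMAD4 peak with its summit at 952 bp. The SMAD4 peak after BMP6 at -65 bp there overlapped no control SMAD4 peak. Merged sites were not counted over all genes.

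Counted by peaks, 14 of the 14 pSMAD1/5/9 peaks after BMP6 overlapped a SMAD4 peak of the same cells (100%, Wilson 95% interval 78.5 to 100), where 73.2% of the whole list did. In the SMAD4 list of control cells 12 of the 14 had a partner (85.7%, 60.1 to 96.0), against 57.2% of the whole list. In the pSMAD1/5/9 list of control cells 1 of 14 had one (7.14%, 1.27 to 31.5), against 11.4% of the list. Of the 31 SMAD4 peaks after BMP6, 15 overlapped one of control cells (48.4%, 32.0 to 65.2; 45.5% of the list). Of the 17 SMAD4 peaks of control cells, 16 overlapped one after BMP6 (94.1%, 73.0 to 99; 69.7% of the list). All 14 pSMAD1/5/9 peaks lay on H3K27ac peaks in both conditions. Nearly the whole list did so too, 98.2% for H3K27ac after BMP6 and 97.5% for H3K27ac of control cells. For SMAD4 after BMP6, 29 of the 31 peaks lay on H3K27ac of the same cells (93.5%, against 95.7% of the list). The intervals cover counting error over peaks only, not the spread between replicates.

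**Figure D2:**
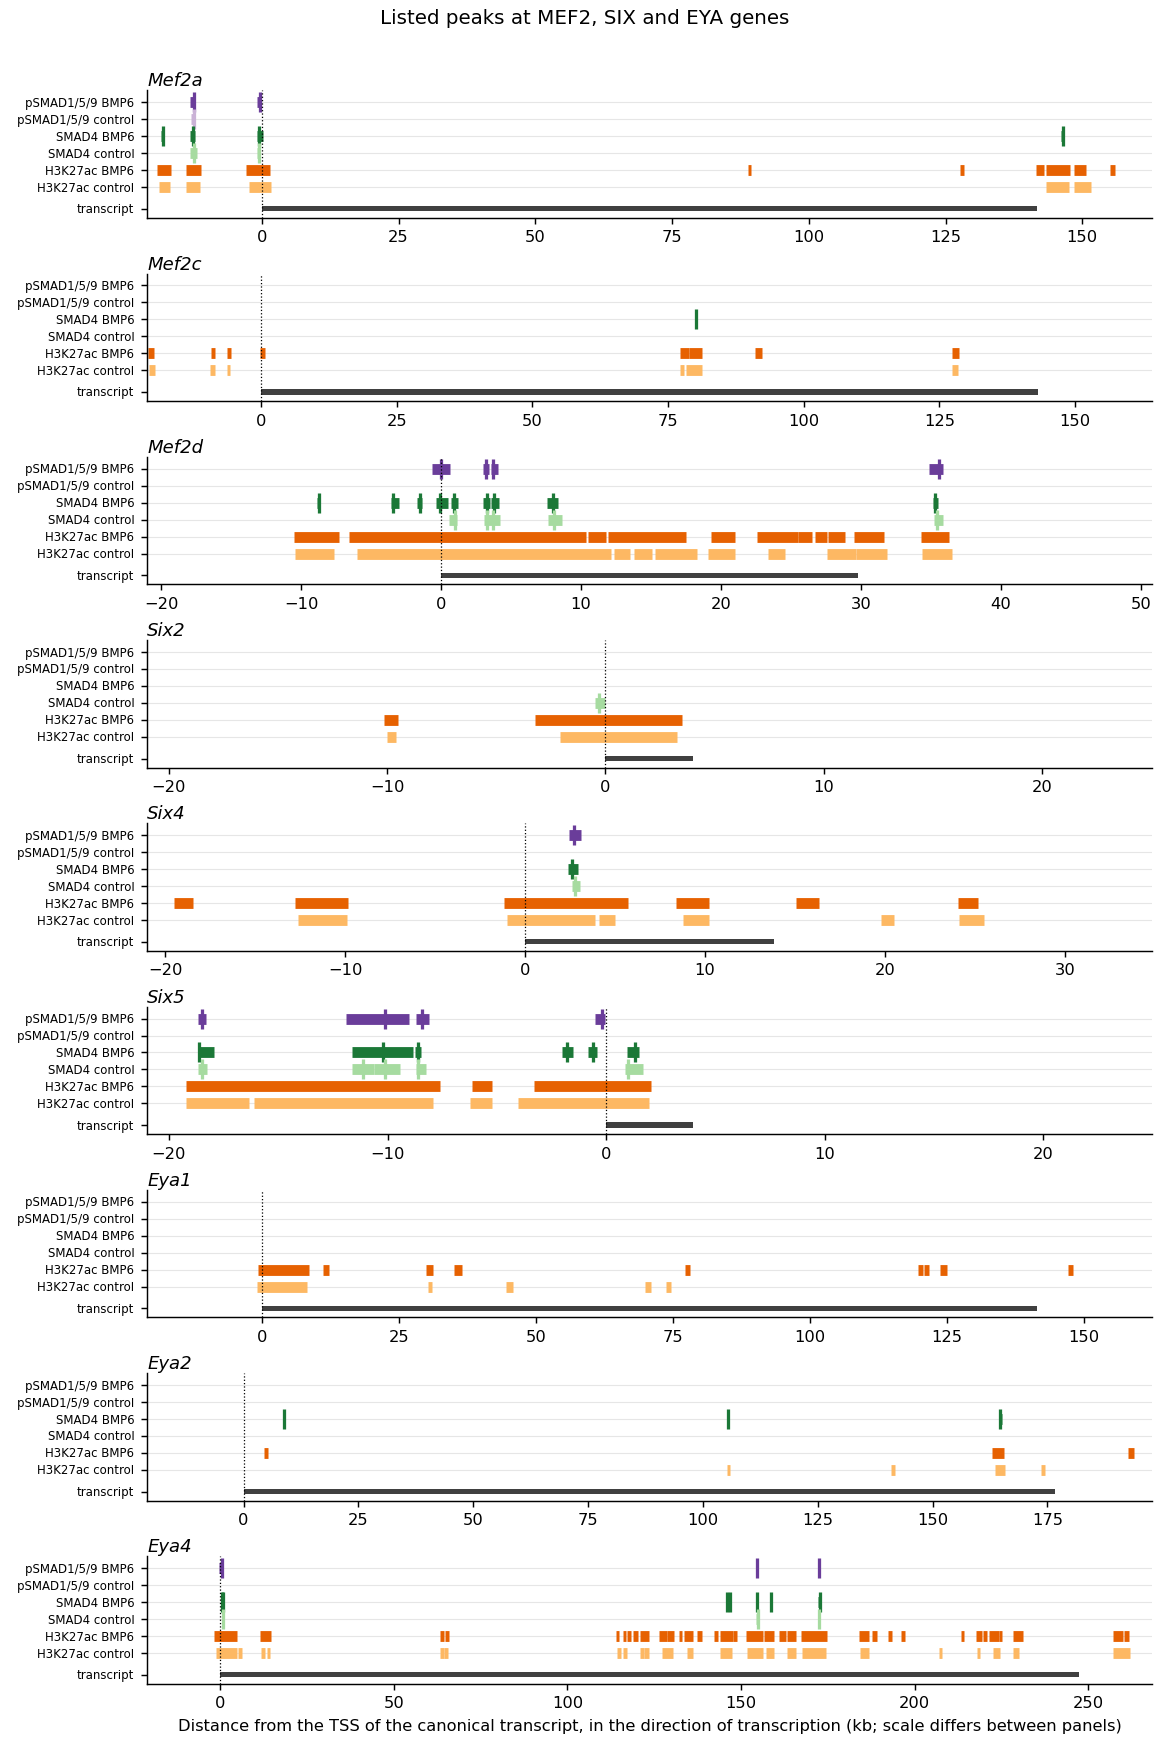
Listed peaks at each of the 9 genes, drawn to scale along the distance from the TSS (x axis, kb, in the direction of transcription; the scale differs between panels), with 1 row per list (y axis), thick bars for peaks, vertical ticks for the summits of SMAD peaks and a dark bar for the canonical transcript. SMAD peaks cluster over the first 8 kb of Mef2d and over the 20 kb before Six5, and pSMAD1/5/9 in control cells appears only upstream of Mef2a.

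Among the MEF2 genes, Mef2d held the most SMAD peaks. It encodes a MEF2 factor that is expressed widely and takes part in late muscle differentiation. Mef2d (ENSMUSG00000001419.19, chr3:88049632-88079398, plus strand, 11 exons) had 4 pSMAD1/5/9 peaks after BMP6 and 0 in control cells, and 9 SMAD4 peaks after BMP6 and 5 in control cells. Only 2.28% of all genes had at least as many pSMAD1/5/9 peaks after BMP6, and 0.437% at least as many SMAD4 peaks.

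The strongest pSMAD1/5/9 peak of Mef2d covered its TSS, with the summit at -47 bp. Signal ranks are given within a list, from the strongest peak down, because the signal has no unit that compares between lists, and ranks of different lists are given side by side only as descriptions. This peak ranked 332 of 7339, and 365 and 322 by the values of the first and second replicate. The SMAD4 peak there, at -65 bp, ranked 2507 of 12860 after BMP6, and the nearest SMAD4 peak of control cells, which overlapped the edge of the pSMAD1/5/9 peak, had its summit at 952 bp (rank 4058 of 8577). A further pair of pSMAD1/5/9 peaks lay in intron 1 at 3193 bp (rank 2281; 1737 and 3611 by replicate) and 3717 bp (rank 2334; 4463 and 1066). The replicates thus placed these weaker peaks far apart in the list, and did not do so for the peak at the TSS. The summit at 3193 bp was 17 bp from the start of another annotated Mef2d transcript. The last pSMAD1/5/9 peak was downstream of the gene at 35557 bp (rank 443; 244 and 1491), 93 bp from the start of the long non-coding RNA 1700113A16Rik.

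SMAD4 without pSMAD1/5/9 was listed in intron 1 of Mef2d at 7982 bp after BMP6 and at 8137 bp in control cells. It ranked 2020 of 12860 after BMP6 (2141 and 1924 by replicate) and 624 of 8577 in control cells (824 and 493). It was the strongest SMAD4 peak of the gene in both lists. Of the 9 SMAD4 peaks after BMP6, 5 overlapped a control peak, and the 4 that did not had a median rank of 62.2% of the list. The 200 bases around the summit after BMP6 are shown because they hold a match to the MEF2 site, the sequence that the gene's own product binds (GRCm39, chr3:88057514-88057713, plus strand, MEF2 site in capitals).
Mef2d intron 1, SMAD4: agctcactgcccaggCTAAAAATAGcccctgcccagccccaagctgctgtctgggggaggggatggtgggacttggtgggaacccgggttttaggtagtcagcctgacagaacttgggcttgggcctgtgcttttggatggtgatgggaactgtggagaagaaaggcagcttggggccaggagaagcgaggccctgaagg
The window around the SMAD4 peak at -1502 bp of Mef2d held the other match to the MEF2 site. It ranked 10882 of 12860. Among the 31 SMAD4 windows at the 9 genes these were the 2 matches, and 0.739% of all SMAD4 windows after BMP6 had one. The MEF2 site was in none of the 14 pSMAD1/5/9 windows after BMP6 and in none of the 17 SMAD4 windows of control cells. The latter include the window of control cells at this intron 1 site.

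Mef2a (ENSMUSG00000030557.19, chr7:66880911-67022606, minus strand, 11 exons), whose product is expressed in heart and skeletal muscle, was the only gene with pSMAD1/5/9 in both conditions. The shared peak lay upstream of the gene. Its summit was at -12477 bp after BMP6, with rank 1059 of 7339 (1710 and 576 by replicate), and at -12384 bp in control cells, with rank 353 of 949 (334 and 372). With lists of such unequal length, these ranks say that the site was listed in both conditions and not whether its signal differed. SMAD4 ranked 1497 of 12860 there after BMP6 and 719 of 8577 in control cells. The nearest annotated start was that of the long non-coding RNA Gm73117, 1240 bp from the pSMAD1/5/9 summit after BMP6. The other pSMAD1/5/9 peak of Mef2a was at -445 bp and listed after BMP6 only (rank 2391; 1476 and 5148), beside SMAD4 in both conditions (ranks 2095 and 3036). The pSMAD1/5/9 summit at -445 bp was 79 bp from the start of the long non-coding RNA Gm72692. Mef2a had further SMAD4 peaks after BMP6 at -18112 bp and, downstream of the gene, at 146395 bp, where Lysmd4 was the gene with the nearest TSS. The upstream window is shown as the site in all 4 SMAD lists (GRCm39, chr7:67034983-67035182, plus strand, E-box CAGCTG in capitals).
Mef2a upstream, pSMAD1/5/9: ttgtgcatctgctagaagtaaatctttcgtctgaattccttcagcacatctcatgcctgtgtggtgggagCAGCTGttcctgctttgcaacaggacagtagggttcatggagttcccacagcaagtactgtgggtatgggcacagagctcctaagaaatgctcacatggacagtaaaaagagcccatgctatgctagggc

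Mef2c (ENSMUSG00000005583.18, chr13:83672420-83815555, plus strand, 10 exons), which is required in heart development and for sarcomere genes in muscle, had no pSMAD1/5/9 peak in either list and 1 SMAD4 peak. The peak lay in intron 3 at 80143 bp, was listed after BMP6 only and was weak, with rank 12020 of 12860 (11772 and 11690 by replicate). It sat inside the strongest H3K27ac peak of Mef2c, which ranked 1845 of 78050 after BMP6 (611 and 4383) and 1370 of 67790 in control cells (1434 and 1530). The H3K27ac of Mef2c was thus strongest far from the canonical TSS. At the canonical TSS itself, H3K27ac was listed after BMP6 only, with rank 45404 of 78050. Further upstream, H3K27ac was listed in both conditions with its summit 1 bp from another annotated Mef2c start, at -20091 bp after BMP6 (rank 32884) and at -20153 bp in control cells (rank 18029 of 67790). The intronic window is shown for its AP-1 site and E-box (GRCm39, chr13:83752463-83752662, plus strand, TGACTCA and CAGCTG in capitals).
Mef2c intron 3, SMAD4: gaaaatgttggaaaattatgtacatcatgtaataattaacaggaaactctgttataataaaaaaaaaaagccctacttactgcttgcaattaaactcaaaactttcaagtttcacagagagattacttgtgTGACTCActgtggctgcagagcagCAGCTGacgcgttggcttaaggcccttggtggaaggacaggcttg

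Six5 (ENSMUSG00000040841.7, chr7:18828519-18832474, plus strand, 3 exons) had the strongest SMAD peaks of all 9 genes, but most of them lay closer to other genes. Six5 lies downstream of Dmpk, the gene of the CTG repeat of myotonic dystrophy, and its region also holds Dmwd and Meiosin. It had 4 pSMAD1/5/9 peaks after BMP6 and 0 in control cells. The strongest was at -10124 bp from the Six5 TSS and 989 bp from that of Dmpk, with rank 98 of 7339 (136 and 77 by replicate). SMAD4 at the same place ranked 48 of 12860 after BMP6 (49 and 51) and 137 of 8577 in control cells (110 and 269). Both replicates kept this site within the strongest 3.14% of its 3 lists. The pSMAD1/5/9 peaks at -18504 bp (rank 5226, 18 bp from the TSS of Dmwd) and at -8414 bp (rank 4199, nearest to Dmpk) were also closer to a neighbour. Only the weakest, at -231 bp with rank 6992, had Six5 as the gene with the nearest TSS, and it did not overlap SMAD4 of control cells.

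SMAD4 near Six5 itself was listed after BMP6 at -1792 bp (rank 9912), -624 bp (rank 9258) and 1286 bp (rank 9979), and in control cells at 1043 bp (rank 4082 of 8577). These are weak peaks, all in the lower 50% of their list except that of control cells. The window at -624 bp held the only MEF3 site among the 31 SMAD4 windows at the 9 genes, where 2.13% of all SMAD4 windows after BMP6 had one. In windows of 400 bp it was in 4 of 31, against 4.84% of the list. None of the 14 pSMAD1/5/9 windows after BMP6 and none of the 17 SMAD4 windows of control cells held a MEF3 site in 200 bp. MEF3 is the site that sine oculis homeobox proteins bind. It is shown with the window of the strong site near Dmpk, which held a BMP-responsive SMAD site (GGAGCC, here on the other strand) and 2 E-boxes (GRCm39, plus strand, chr7:18827795-18827994 with TCAGGTT and CAGCTG in capitals, and chr7:18818295-18818494 with GGCTCC and CAGCTG in capitals).
Six5 upstream, SMAD4: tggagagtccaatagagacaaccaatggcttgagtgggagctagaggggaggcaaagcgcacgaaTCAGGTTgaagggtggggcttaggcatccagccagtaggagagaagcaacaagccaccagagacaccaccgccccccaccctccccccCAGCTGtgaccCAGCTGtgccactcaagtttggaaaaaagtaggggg
Dmpk near its TSS, in the Six5 region, pSMAD1/5/9: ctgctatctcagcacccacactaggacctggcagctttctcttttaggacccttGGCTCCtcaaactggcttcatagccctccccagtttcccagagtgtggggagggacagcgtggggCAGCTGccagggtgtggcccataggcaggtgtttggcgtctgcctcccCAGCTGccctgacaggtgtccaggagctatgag

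Six4 (ENSMUSG00000034460.10, chr12:73146383-73160199, minus strand, 3 exons), a homeobox factor of muscle progenitors, had 1 site in its intron 1, in 3 of the 4 SMAD lists. The pSMAD1/5/9 peak at 2743 bp was listed after BMP6 only, with rank 1003 of 7339 (1340 and 716 by replicate). Six4 had the nearest canonical TSS to its summit. Over all annotated transcripts, the nearest start belonged to the neighbouring coding gene Mnat1, at 1167 bp. SMAD4 was listed in both conditions, at 2591 bp with rank 6379 of 12860 after BMP6 (7733 and 4230) and at 2795 bp with rank 1700 of 8577 in control cells (2597 and 1008). The lists differ in length, so these ranks do not measure a change between conditions. H3K27ac over the same site and the TSS ranked 533 of 78050 after BMP6 and 478 of 67790 in control cells. The window is shown as the only SMAD site at Six4 (GRCm39, chr12:73157356-73157555, plus strand, CAGCTG in capitals).
Six4 intron 1, pSMAD1/5/9: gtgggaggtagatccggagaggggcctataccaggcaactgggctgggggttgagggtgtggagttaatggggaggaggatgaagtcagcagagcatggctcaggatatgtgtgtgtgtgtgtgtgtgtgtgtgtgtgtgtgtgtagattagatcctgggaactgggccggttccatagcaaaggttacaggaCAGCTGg

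Six2 (ENSMUSG00000024134.14, chr17:85991665-85995703, minus strand, 2 exons), known from the progenitors of the kidney, was the only 1 of the 9 genes with SMAD4 in control cells and not after BMP6, a pattern of 4.24% of all genes. Its SMAD4 peak at -322 bp ranked 4646 of 8577 (4048 and 5435 by replicate), and its summit lay 5 bp from another annotated Six2 start. The opposite pattern, SMAD4 after BMP6 and not in control cells, held for Mef2c and Eya2, so for 2 of 9 genes, against 12.8% of all genes. Both patterns depended on the IDR cutoff. No SMAD4 peak of Six2, Mef2c or Eya2 had an IDR of at most 0.01. With that cutoff Six4 had SMAD4 in control cells only, and Eya4 after BMP6 only. Six2 had H3K27ac over its TSS in both conditions. The replicates differed widely in its rank, 24104 and 3153 of 78050 after BMP6 and 5906 and 37024 of 67790 in control cells.

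Among the EYA genes, pSMAD1/5/9 was listed only at Eya4 (ENSMUSG00000010461.18, chr10:22978861-23226099, minus strand, 19 exons), the longest of the 9 genes and known from hearing and heart. After BMP6 its pSMAD1/5/9 peaks lay at 466 bp (rank 5422), and in intron 3 at 154692 bp (rank 2121; 1558 and 3656 by replicate) and 172432 bp (rank 4800). All 3 overlapped SMAD4 after BMP6. Over all annotated Eya4 transcripts, the summits in intron 3 lay 9903 bp (rank 2121) and 7797 bp (rank 4800) from the nearest Eya4 start. SMAD4 of control cells was listed at 154776 bp (rank 5556 of 8577), 172463 bp (rank 6151) and 979 bp (rank 7817). Intron 3 thus held a cluster of SMAD4 peaks after BMP6, at 146094, 146858, 154678, 158683 and 172575 bp, with ranks from 3431 to 11346 of 12860. None of the Eya4 peaks reached the strongest 10% of a SMAD list.

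Eya2 (ENSMUSG00000017897.20, chr2:165436952-165613647, plus strand, 16 exons), an EYA co-activator of limb muscle progenitors, had 3 SMAD4 peaks after BMP6 and no other SMAD peak. They lay in introns at 8837 bp (rank 7991), 105401 bp (rank 12613) and 164690 bp (rank 6424 of 12860). The summit at 164690 bp was 2102 bp from another annotated Eya2 start. The peak at 8837 bp overlapped no H3K27ac, and that at 105401 bp overlapped H3K27ac of control cells only. Eya2 was also the only gene without H3K27ac at its canonical TSS in both conditions. Eya1 (ENSMUSG00000025932.16, chr1:14239167-14380476, minus strand, 18 exons), the EYA gene of branchial arch, ear and kidney development, had the reverse pattern. No SMAD peak was listed there, while H3K27ac over its TSS was 9240 bp wide after BMP6 and 9200 bp wide in control cells. This peak ranked 340 of 78050 after BMP6 (1489 and 319 by replicate) and 251 of 67790 in control cells (93 and 2965).

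**Figure D3:**
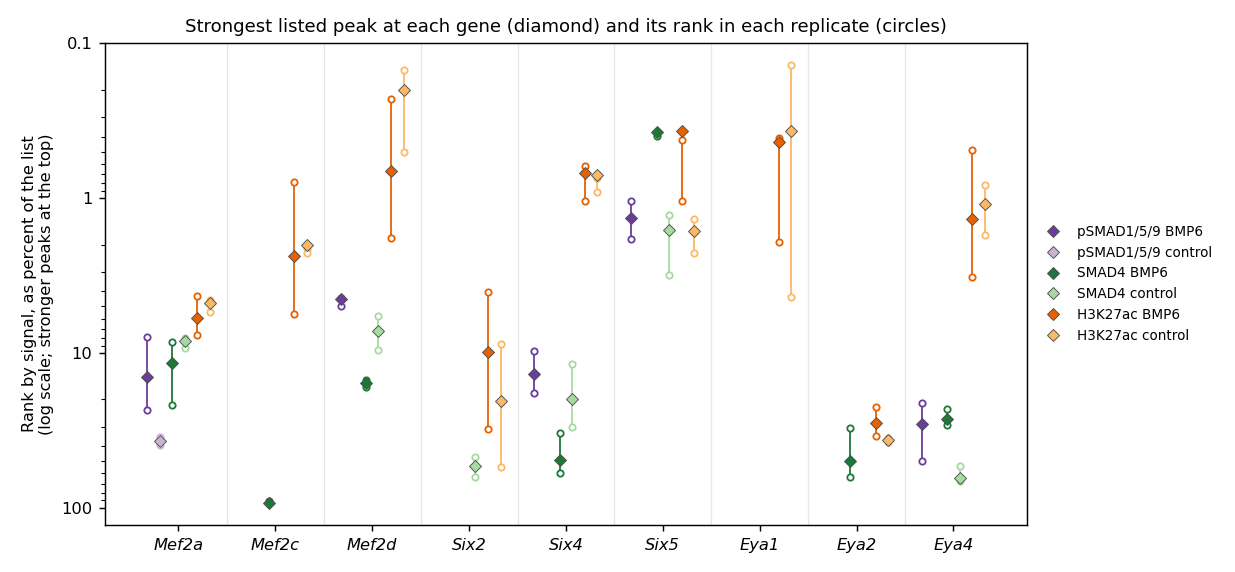
Rank by signal of the strongest peak at each gene in each list, as percent of the list (y axis, log scale, stronger peaks at the top; genes on the x axis), with diamonds for the consensus and open circles joined by a line for both replicates; a list without a peak at the gene has no symbol. Six5 holds the strongest SMAD4 peak (0.373% after BMP6) and Mef2c the weakest (93.5%), and Eya1 has H3K27ac alone.

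Location was summarised over all SMAD peaks at the 9 genes. Peaks within 2 kb of the start of any protein-coding gene were counted as TSS peaks. Of the 14 pSMAD1/5/9 peaks after BMP6, 6 were at a TSS, 1 in an exon, 5 in introns and 2 intergenic. In the whole list 33.8% were at a TSS, 28.3% in introns and 32.8% intergenic. Of the 31 SMAD4 peaks after BMP6, 11 were at a TSS, 13 in introns and 5 intergenic, against 31.3%, 30.2% and 33.7% of the list. The regions end 20 kb from a transcript, so peaks far from genes could not enter. These shares are therefore not a like comparison with the lists. The gene whose region held the peak had the nearest canonical coding TSS for 11 of the 14 pSMAD1/5/9 peaks and for 26 of the 31 SMAD4 peaks. All exceptions lay in the Six5 region, except 1 peak each at Mef2a and Eya2. Within 2 kb of the gene's own TSS, pSMAD1/5/9 was listed after BMP6 at 4 of 9 genes (12% of all genes), and SMAD4 at 4 of 9 after BMP6 (17.8%) and at 5 of 9 in control cells (12.4%).

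Short sequence motifs were searched on both strands in 200 bp around the summits. In the 14 pSMAD1/5/9 windows after BMP6, 8 held the E-box CAGCTG, a site of MyoD-family factors, where 31.1% of all windows of the list did. In the 31 SMAD4 windows after BMP6 it was in 7, against 29.1% of the list. The E-box was thus in over 50% of the pSMAD1/5/9 windows and in a smaller share of the SMAD4 windows, although both sets describe overlapping sites, and this difference was not tested. In windows of 400 bp it was in 9 of 14 and in 18 of 31, against 45.7% and 43.4% of the lists. A BMP-responsive SMAD site (GGCGCC or GGAGCC) was in 3 of 14 pSMAD1/5/9 windows (30.2% of the list) and in 9 of 31 SMAD4 windows (28.4%). The AP-1 site (TGACTCA or TGAGTCA) was in 2 of 14 (15.5%) and 5 of 31 (15.1%), and the SMAD palindrome GTCTAGAC was in none (0.518% and 1.26% of the lists). The median GC content of the 14 windows was 58.0%, against 56.0% of the list. A match says only that the letters are there.

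H3K27ac was listed in the region of all 9 genes in both conditions, against 74.8% of all genes after BMP6 and 73.4% in control cells. Within 2 kb of the TSS it was listed at 8 of 9 genes after BMP6 (55.1% of all genes) and at 7 of 9 in control cells (53.0%), the gene that differed being Mef2c. The share of the region covered by H3K27ac peaks was highest at Mef2d, 55.7% after BMP6 (54.2 and 50.6 by replicate) and 51.5% in control cells (48.3 and 48.9). Only 1.72% and 1.29% of all genes were covered at least as much. A single H3K27ac peak over the Mef2d TSS was 16940 bp wide after BMP6 and 18200 bp wide in control cells, with ranks 524 and 136. Six5 followed with 40.6% and 41.2%, Six4 with 28.1% and 22.3%, and Eya4 with 25.8% and 19.1%. Eya2, with 2.23% and 2.12%, and Mef2c, with 4.99% and 3.59%, lay below the medians of all genes, 7.07% and 5.68%. The cover was larger after BMP6 than in control cells at 8 of 9 genes, and the list after BMP6 was also the longer one.

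**Figure D4:**
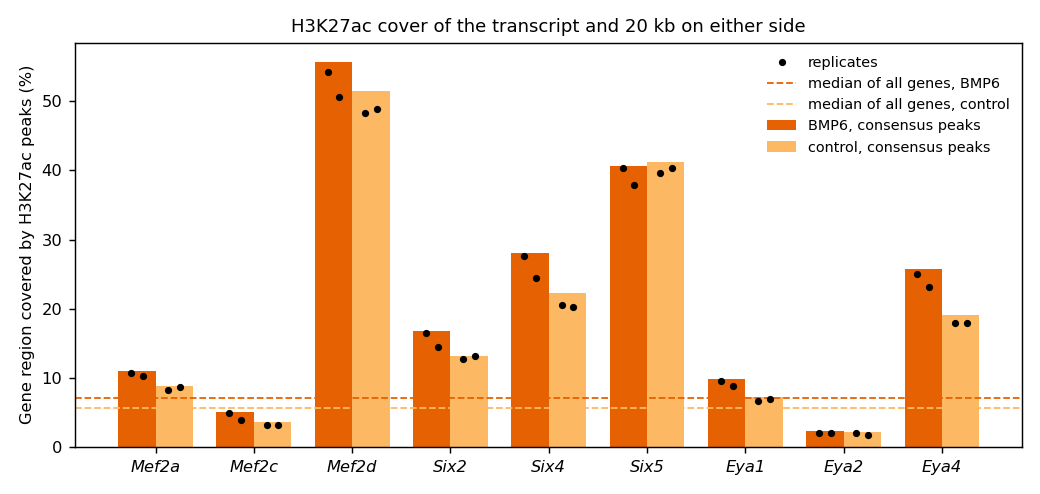
Percent of each gene region covered by H3K27ac peaks (y axis) for the 9 genes (x axis), with dark bars for BMP6, light bars for control cells, black points for the peaks as bounded in each replicate and dashed lines for the medians of all genes. Mef2d lies highest, at 55.7% and 51.5%, and Eya2 lowest, at 2.23% and 2.12%.

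Of the 85 H3K27ac peaks at the 9 genes after BMP6, 56 overlapped one of control cells (65.9%, Wilson 95% interval 55.3 to 75.1; 72.0% of the list). In the other direction 56 of 65 did (86.2%, 75.7 to 92.5; 86.8% of the list). The strongest H3K27ac peak listed in 1 condition only, at Eya4 after BMP6, stood at 38.4% of its list. Eya4 had 34 H3K27ac peaks after BMP6, of which 11 were not shared, with a median rank of 70.2% of the list. Eya1 had 9, of which 7 were not shared, and the strongest of those stood at 60.5% of the list. At Mef2d 10 of 11 were shared, and at Six5 all 3.

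Partners of the 3 families were looked up in the same way, as 12 genes chosen for their known role: Dach1 and Dach2, Pax3 and Pax7, the class IIa deacetylases Hdac4, Hdac5, Hdac7 and Hdac9 that repress MEF2, the kinases Mapk14 and Mapk7 that activate it, and the co-activators Ep300 and Carm1. pSMAD1/5/9 was listed after BMP6 at 6 of 12 (29.1% of all genes) and in control cells at 3 of 12 (5.97%), and SMAD4 at 10 of 12 (39.3%) and 9 of 12 (30.8%). The 6 genes were Pax7, Hdac4, Hdac5, Mapk7, Mapk14 and Carm1. Pax7, the paired-box factor of MuSCs, had 15 pSMAD1/5/9 peaks after BMP6 and 8 in control cells, and 28 and 19 SMAD4 peaks, and only 0.00919% of all genes had at least as many pSMAD1/5/9 peaks after BMP6. Hdac4 had 3 and 2 pSMAD1/5/9 peaks, and Hdac5 had 3 and 0. Mapk7 and Mapk14 had 1 each after BMP6 only, and Carm1 had 1 in both conditions.

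The genes whose numbers of peaks in the 6 lists were most like those of Mef2d were sought among all genes, by the Euclidean distance of log2(peaks + 1). They were Dok7, a muscle adaptor at the neuromuscular junction (distance 0.24), Abcb8, a mitochondrial transporter (0.43), and Ahdc1 (0.468). Dok7 had 4 and 0 pSMAD1/5/9 peaks, 8 and 5 SMAD4 peaks and 10 and 9 H3K27ac peaks after BMP6 and in control cells.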

How the data were processed

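CUT&Tag of MuSCs comprised 14 samples, of which 12 with an antibody entered the 6 lists. The 2 libraries without antibody were not analysed here. The authors subsampled reads so that libraries of an antibody had equal depth, aligned them to GRCm39, called peaks per replicate with JAMM and combined both replicates with IDR at 0.05. The submitters' processing notes name Bowtie2 2.5.4, SAMtools 1.21 and bedtools 2.31.1. In the deposited lists the signal is a score of the authors' peak caller without a unit, the IDR is given as −log10, and other columns hold positions. The signal of a consensus peak is the sum of both replicate values. Depth is unknown.

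Peaks were intersected with GENCODE canonical transcripts with an overlap of at least 1 bp, and the Wilson interval was taken at 95%. The replicate columns carry no number and are called first and second. Signals were ranked within each list, and no change in signal between lists was derived. No test was run, since each antibody and condition has 1 list. The background was the share of 21757 genes called by the same rule. Python 3.11.15, numpy 2.4.6, pandas 2.3.3, scipy 1.17.1, pysam 0.24.0 and matplotlib 3.10.9 were used, and the procedures were tested on simulated data. Sequences are from the GRCm39 genome. The 9 genes, the partner list, the markers and the motifs were chosen with earlier results of these data known. The named genes were the 9 genes, those partners with a pSMAD1/5/9 peak after BMP6, neighbours with the nearest TSS and the 3 genes most like the one with the most pSMAD1/5/9 peaks. Of Mef2d and Six5, which tied for these, Mef2d was taken for its larger number of SMAD4 peaks.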

Additional observations from a re-analysis of the deposited data

How the results depend on the processing

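With an IDR of at most 0.01, the pSMAD1/5/9 peaks at the 9 genes numbered 7 after BMP6 and 0 in control cells (0 genes, 0% shared), and the SMAD4 peaks 16 (4 genes) and 11. In the proximal region alone, from 1.5 kb before to 0.5 kb after the TSS, pSMAD1/5/9 had 4 and 0 peaks (0 genes in control cells, 0% shared), SMAD4 had 5 (4 genes) and 2 (2 genes) and H3K27ac 8 and 7, and 20% of SMAD4 and 87.5% of H3K27ac peaks after BMP6 were shared. Within the transcript alone pSMAD1/5/9 had 7 (3 genes) and 0 peaks (0 genes, 0% shared) and SMAD4 19 and 9, and the median H3K27ac cover was 27.3% and 19.9%, in place of 16.7% and 13.2%. With an overlap of 50% of both peaks, 71.4% of pSMAD1/5/9 peaks had SMAD4 and 50.6% of H3K27ac peaks were shared. With lncRNA genes added, the nearest TSS was the member's for 23 in place of 51 of 63 SMAD peaks. The strongest peaks of a gene in the top 10% of their list numbered 21, and 22 to 23 with 1 replicate column left out. This count pools all 6 lists, H3K27ac included, and takes the best of all peaks of a gene in each. It was not set against other genes, so it does not show unusually strong binding. Of these counts and shares under other settings, 61 values stayed within 1.5 times the count or within the interval of the share, and 31 did not. Among those that stayed were 4 in place of 6 genes with SMAD4 in control cells (IDR of 0.01, or transcript alone). The 22 and 23 strongest peaks with 1 replicate column left out also stayed, as did 18 in place of 21 with an IDR of 0.01. Of the ranks of single genes, motif counts and densities under other settings, 103 were counted as unchanged and 34 were not. Motif counts and densities were held to 1.5 times their value. A rank had to stay within the standard deviation of its 2 replicate ranks, a limit that widens as the replicates disagree. The strongest H3K27ac peak of Mef2c after BMP6 thus counted as unchanged, with rank 1845 and with 611 or 4383 by 1 replicate. The E-box in SMAD4 windows went from 7 of 31 to 3 in 100 bp and 18 in 400 bp. No paired analysis was possible because the replicate columns of the lists carry no number, although the labels number the samples. Leaving out the Six5 region was chosen after seeing the data. The number of replicates limits the precision, and read depth is unknown.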
